A study of Mus musculus with 12 samples.

Results

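The genes described here carry high-energy phosphate from the mitochondria to the sites of ATP use in the heart. They are the creatine kinases Ckm, Ckb, Ckmt2 and Ckmt1, the creatine transporter Slc6a8, the creatine synthesis enzymes Gatm and Gamt, and the adenylate kinases Ak1 and Ak4. Members were chosen by gene name, and each of the 9 symbols matched 1 of the 43686 rows of the count table. The expression filter kept 17155 rows, and 8 of the 9 genes were among them. Ckmt1 had too few reads to be tested.

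RNA of the ventricular wall of WT and KO mice was sequenced in 6 libraries a genotype. WT mice were Sdhaf4fl/fl littermates without Cre, and KO mice were Sdhaf4fl/fl and carried Ckmm-Cre, so both groups had floxed alleles of Sdhaf4, which encodes an assembly factor of mitochondrial complex II. The labels name the mice wild type and Sdhaf4-/- on a C57BL/6 background at postnatal month 2, whereas the study's text gives a younger age. Its reporting summary states that males were used for omics work, at a younger age or at one near that of the labels. Ckmm-Cre is driven by regulatory sequence of the Ckm gene itself and deletes in skeletal as well as cardiac muscle. Only KO libraries carry this transgene, so the deletion of Sdhaf4 and the presence of extra Ckm promoter copies cannot be told apart as conditions for the values of Ckm.

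Creatine kinase transfers a phosphate group between ATP and creatine in both directions. The sarcomeric mitochondrial isoform Ckmt2 makes phosphocreatine in the intermembrane space, and the cytosolic isoforms, muscle-type Ckm and brain-type Ckb, regenerate ATP beside the myofibrils and pumps. The heart takes creatine up from the blood through Slc6a8, while Gatm and Gamt catalyse the successive steps of creatine synthesis, mainly in kidney and liver. Adenylate kinase interconverts ATP, ADP and AMP, with Ak1 in the cytosol and Ak4 in the mitochondrial matrix, and the AMP it forms is the signal read by AMP-activated protein kinase (AMPK).

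Upstream sequences are shown for 4 genes because the results turn on them: Ckm, whose level fell, Ckmt2 and Ckb, its partner isoforms whose differences did not pass the test, and Ak4, which had the largest rise. They come from RefSeq promoter windows of 300 bases (250 before the start site and 50 after it) on GRCm38.p6, which held 15 windows for 8 of the 9 genes and none for Slc6a8. The Ckm stretch is chr7:19410844-19411024 on the plus strand and stops before 19411025, where GENCODE M21 places the start of an exon upstream of the RefSeq start site at 19411094, the Ckmt2 stretch is chr13:91876886-91877135 on the minus strand, the Ckb stretch is chr12:111672339-111672588 on the minus strand, and the Ak4 stretch is the 26 bases of chr4:101419479-101419504 on the plus strand around its motif. Each is written from 5′ to 3′. Capitals mark E-boxes (CANNTG) in Ckm and Ckmt2, the match to the MEF2 motif in Ckb, and the palindrome CACGTG in Ak4, which holds the core of the hypoxia response element (ACGTG) on both strands and is also an E-box.
Ckm: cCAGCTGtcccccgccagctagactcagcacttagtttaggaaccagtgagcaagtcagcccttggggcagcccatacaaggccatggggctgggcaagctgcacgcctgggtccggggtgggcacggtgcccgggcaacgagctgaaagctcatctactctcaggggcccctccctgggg
Ckmt2: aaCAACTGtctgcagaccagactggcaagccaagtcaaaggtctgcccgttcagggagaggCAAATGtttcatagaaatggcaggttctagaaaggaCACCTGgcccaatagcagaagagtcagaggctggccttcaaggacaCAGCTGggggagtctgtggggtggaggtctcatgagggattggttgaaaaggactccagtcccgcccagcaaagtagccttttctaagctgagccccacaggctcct
Ckb: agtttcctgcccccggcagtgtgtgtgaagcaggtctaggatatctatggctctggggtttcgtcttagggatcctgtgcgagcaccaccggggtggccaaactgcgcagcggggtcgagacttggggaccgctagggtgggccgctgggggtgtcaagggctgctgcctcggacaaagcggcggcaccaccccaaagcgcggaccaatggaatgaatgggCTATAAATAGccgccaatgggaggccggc
Ak4: ccactctgccCACGTGcggggaccgg

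All 4 motifs were searched on both strands of 32851 windows of the same length. The ACGTG core was in 19.6% of all windows and in 3 of the 15 windows of these genes, at -214 and -213 from the start site in Ak4, at -94 in Gatm and at -33 in 1 Ak1 window. The estrogen-related receptor element AAGGTCA was in 4.72% of all windows and in 2 of the 15, 1 of Ak1 at -90 and that of Ckmt1 at -179. An E-box was in 72.3% of all windows and in 10 of the 15. The Ckmt2 window held 4 E-boxes and the Ckm window 1, at -249. The MEF2 motif was in 3.69% of all windows and in 1 of the 15, at -29 in Ckb, where it lies over a run that reads like a TATA box. These matches describe the letters of the windows, and the muscle enhancers of Ckm lie outside the window shown.

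Between 23747014 and 27159228 reads were counted per WT library (median 25476732) and between 26542930 and 31393393 per KO library (median 29399085). Sdhaf4 itself, on the C57BL/6NJ assembly at chromosome 1, 22811495 to 22821212, minus strand, ranged from 14.3 to 30.3 CPM (counts scaled to the library totals with the TMM method) in WT and from 2.25 to 2.73 CPM in KO (log2 fold change -3.39, SE 0.16, edgeR, adjusted p = 1.95e-10). The 10 cardiomyocyte markers were abundant in every library, with a summed level of 60960 to 67560 CPM in WT. The sum was 66120 CPM in KO replicate 3 and 46140 to 51860 CPM in the other KO libraries, so KO replicate 3 stood apart from its group. Atrial markers summed to at most 4.50 CPM in any library, and skeletal muscle markers to 2.74 to 11.97 CPM in WT and 1.19 to 5.33 CPM in KO.

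The creatine kinase system of the KO ventricle was marked by a fall of its cytosolic muscle isoform beside unresolved differences of its mitochondrial isoform and its transporter, and the adenylate kinase genes by a rise of Ak4. With the quasi-likelihood test of edgeR, adjusted by Benjamini-Hochberg over all 17155 rows and read at 0.05, 2 of the 8 genes tested were higher in KO, Ak1 and Ak4, and 2 were lower, Ckm and Gamt. Of all rows tested, 25.6% were higher and 25.5% lower at this threshold, 51.1% in all, so the count of these genes is near that of the table as a whole. A stricter threshold asked for an adjusted p under 0.005 and a log2 fold change above 1 or below -1. It called Ak4 higher and Gamt lower, where 5.36% of all rows were higher and 4.87% lower, 10.2% in all. The 6 WT and 6 KO libraries did not overlap for 3 of the 8 genes, Ckm, Gamt and Ak4, and for 30.1% of all rows. The median log2 fold change was 0.04 over the 8 genes, with a range from -1.26 to 1.51, and 0.002 over all rows.

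**Figure D1:**
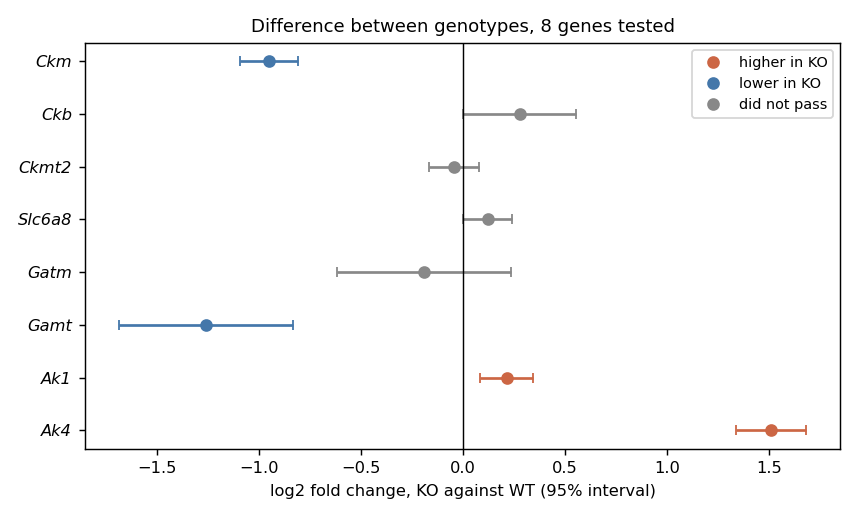
Log2 fold change of KO against WT (horizontal axis) for the 8 genes tested (vertical axis), with points for the estimates, bars for 95% intervals and colors for the call at an adjusted p under 0.05. Ckm (-0.95) and Gamt (-1.26) lie left of 0, Ak1 (0.21) and Ak4 (1.51) lie right of it, and the other 4 did not pass.

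Ranked per length in FPKM (the deposited values, scaled by gene length and library size), the genes ran from abundant transcripts to transcripts near 0. In WT, Ckm was the 40th and Ckmt2 the 41st most abundant row of the table, at means of 1495 and 1446 FPKM with overlapping libraries. Below them stood Ak1 (330 FPKM), Slc6a8 (127 FPKM), Ckb (23.5 FPKM), Ak4 (8.95 FPKM), Gamt (5.39 FPKM) and Gatm (2.53 FPKM). In KO, Ckmt2 was the 35th and Ckm the 108th row, at 1403 and 774 FPKM. Ak4 moved from rank 7622 to rank 3884 and its KO libraries (23.0 to 29.2 FPKM) lay within the range of Ckb (19.0 to 38.1 FPKM), whereas no WT library of Ak4 reached the range of Ckb. Gamt and Gatm stood at 2.27 and 2.23 FPKM in KO, with overlapping libraries.

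Ckm, the cytosolic creatine kinase of muscle, is on the C57BL/6NJ assembly at chromosome 7, 18285978 to 18296290, plus strand (MGP_C57BL6NJ_G0032223). Its level was lowest at 1971 CPM, with a median of 2132 and a highest value of 2201 CPM, in WT, and the KO libraries ran from 967 CPM through a median of 1103 to 1223 CPM. Every KO library lay below every WT library. Ckm fell by 0.95 on the log2 scale (SE 0.07, 95% interval -1.09 to -0.81, edgeR, adjusted p = 6.90e-09), from 2118 ± 77.3 to 1095 ± 112 CPM (mean ± SD, n = 6 each). Without KO replicate 3 the log2 fold change was -0.99 (edgeR, adjusted p = 2.52e-09). The KO libraries held 26858 to 37529 Ckm reads each. In tissue RNA, fewer cardiomyocytes and less RNA per cardiomyocyte cannot be told apart.

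An unnamed row on the opposite strand (MGP_C57BL6NJ_G0032224) shares 2429 bases with the 3′ part of the Ckm gene. It held 2718 to 3682 reads in WT and 1478 to 2614 reads in KO, which is 4.91% to 7.76% of the Ckm reads of the same library. It was lower in KO by a log2 fold change of -0.89 (SE 0.12, edgeR, adjusted p = 2.35e-05). Whether strand was used in the counting is not given in the sources used here, so reads of Ckm and of this row cannot be told apart.

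Ckmt2, the sarcomeric mitochondrial creatine kinase, is at chromosome 13, 95997978 to 96022659, minus strand (MGP_C57BL6NJ_G0021197). Its WT libraries ran from 2069 CPM through a median of 2138 to 2300 CPM and KO libraries from 1923 CPM through 2035 to 2331 CPM. The groups overlapped: 4 KO libraries lay below every WT library, replicate 5 lay inside the WT range and replicate 3 lay above it. The log2 fold change was -0.04 (SE 0.06, edgeR, adjusted p = 0.557), and its 95% interval from -0.17 to 0.08 does not reach the size of the fall of Ckm. An unnamed row on the opposite strand inside Ckmt2 held between 0.802% and 1.37% as many reads.

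Ckb, the brain-type cytosolic creatine kinase, which the embryonic heart expresses before Ckm takes over, is at chromosome 12, 117613816 to 117616786, minus strand (MGP_C57BL6NJ_G0020523). WT libraries ran from 29.7 CPM through a median of 34.6 to 41.2 CPM and KO libraries from 29.2 CPM through 43.5 to 55.4 CPM. KO replicate 4 held the highest value and KO replicate 6 the lowest of all 12, so the groups overlapped. The log2 fold change was 0.28 (SE 0.13, 95% interval 0.00 to 0.55), and Ckb did not pass the test (edgeR, adjusted p = 0.0862). Without KO replicate 6 the log2 fold change was 0.36 and Ckb passed (edgeR, adjusted p = 0.00615). Without KO replicate 4, the highest, it was 0.19 and did not pass (edgeR, adjusted p = 0.187). Of the 12 fits that leave out a library, Ckb passed in 1. RefSeq names pseudogenes of Ckb, and how reads shared with them were counted is uncertain.

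Ckmt1, the ubiquitous mitochondrial creatine kinase of brain and epithelia, is at chromosome 2, 128320494 to 128326510, plus strand (MGP_C57BL6NJ_G0026809). Of the WT libraries, 5 had no read and replicate 3 had 4 reads. Taken as 3 reads, the limit that a count of 0 allows was 0.108 to 0.127 CPM in a WT library, and the exact two-sided 95% Poisson bound for a count of 0 was 3.69 reads. The KO libraries had 7, 4, 20, 2, 5 and 9 reads in replicates 1 to 6, between 0.0687 and 0.662 CPM. The exact 95% Poisson intervals, which cover counting error only, ran from 1.09 to 10.2 reads for the 4 reads of the WT library and from 12.2 to 30.9 reads for the 20 reads of KO replicate 3. In all there were 4 reads in WT and 47 in KO. The groups overlapped, since KO replicates 2 and 4 lay below WT replicate 3 in CPM, and Ckmt1 was not tested in the fit with the expression filter. Without the filter it passed (log2 fold change 3.14, edgeR, adjusted p = 0.00698), a value that depends on the prior count. Ckmt1 shares its last 10 bases with Strc on the opposite strand, which held at most 8 reads in any library.

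**Figure D2:**
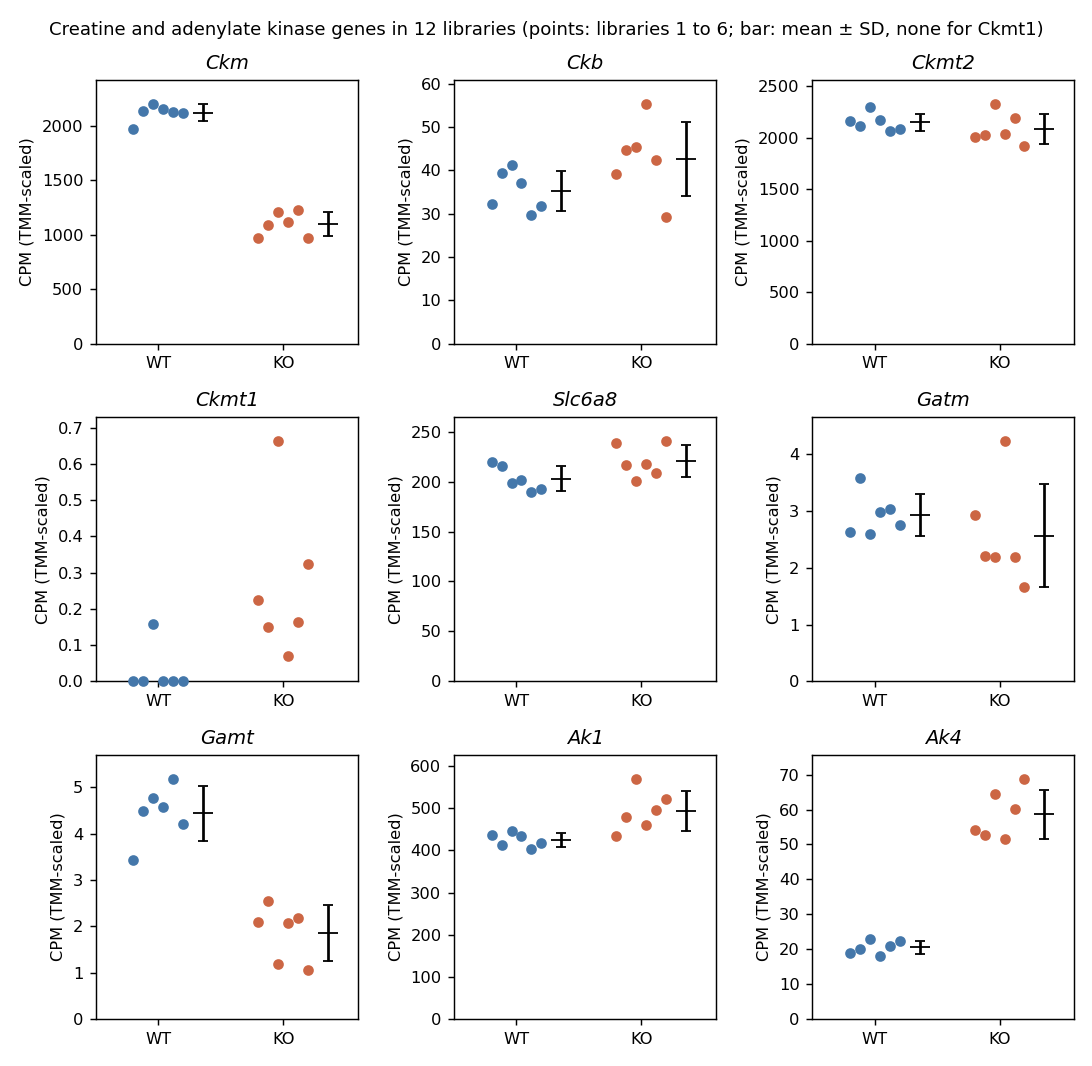
TMM-scaled CPM (vertical axes, from 0) of the 9 genes in the 6 WT and 6 KO libraries, in replicate order from left to right, with points for libraries and bars for mean ± SD (none for Ckmt1). The groups do not overlap for Ckm (1971 to 2201 against 967 to 1223 CPM), Gamt and Ak4, and overlap for the other 6.

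The balance of the creatine kinase isoforms, taken per length from FPKM, did not overlap between the genotypes. No test was made on these shares, since they combine the values above. The ratio of Ckm to Ckmt2 was 1.04 ± 0.047 in WT (0.957 to 1.08) and 0.551 ± 0.030 in KO (0.506 to 0.586). Ckmt2 and Ckmt1 together held 48.8% ± 1.13 of all creatine kinase FPKM in WT (47.8% to 50.7%) and 63.7% ± 1.32 in KO (62.3% to 65.6%). The brain-type share of the cytosolic pair, Ckb of Ckb plus Ckm, was 1.54% ± 0.172 in WT (1.30% to 1.74%) and 3.54% ± 0.575 in KO (2.77% to 4.46%). Ckm held nearly all of the cytosolic creatine kinase in both genotypes. It enters each of these measures and was the only creatine kinase called. Ckb (log2 fold change 0.28) and Ckmt2 (-0.04) did not pass, so the shares do not show a rise of either. The creatine kinase sum was 2964 FPKM in WT (2850 to 3086) and 2206 FPKM in KO (1947 to 2395), a change of -25.6%.

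**Figure D3:**
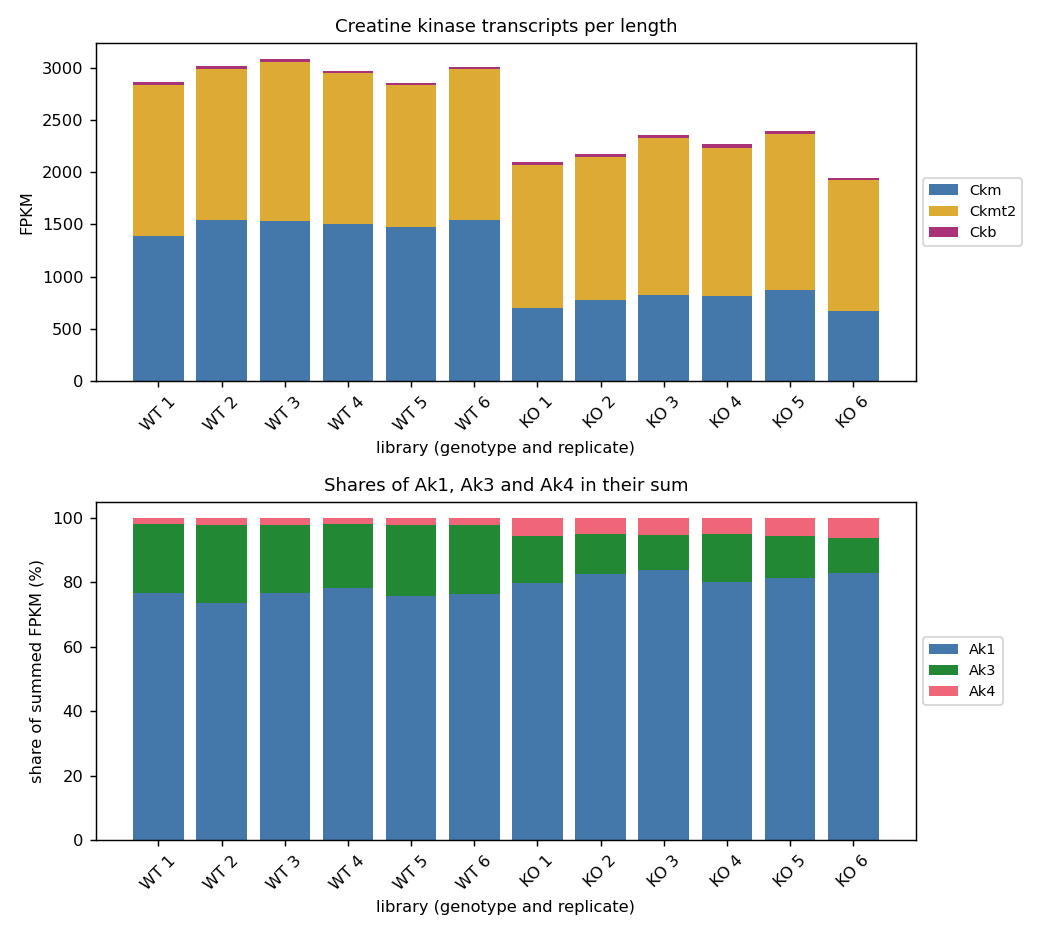
Stacked FPKM of Ckm, Ckmt2 and Ckb (upper panel, vertical axis from 0) and the shares of Ak1, Ak3 and Ak4 in their summed FPKM (lower panel, in percent), with a bar for each library. The Ckm section is shorter in every KO bar while the Ckmt2 section is of similar height, and the Ak4 section widens from between 1.83% and 2.29% in WT to between 5.03% and 6.12% in KO.

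Several markers of other cells differed between the genotypes, where 25.6% of all rows tested were higher and 25.5% lower. All 6 fibroblast markers were higher in KO, with a summed level of 1152 to 1311 CPM in WT and 1892 to 3049 CPM in KO, and 3 of 5 endothelial and 2 of 4 smooth muscle and pericyte markers were higher. Of the macrophage markers 2 of 5 were lower, and of the Schwann and neural markers 3 of 3 tested were lower. Of the brown fat markers 1 was tested, Cidea, and was higher, at 40.5 CPM in WT and 58.6 CPM in KO. The other brown fat markers were near 0, with Ucp1 at most 0.033 CPM and Adipoq at most 0.420 CPM in any library. Of 3 skeletal muscle markers tested, 2 were lower, Tnni2 (log2 fold change -2.19) and Mylpf (-1.81), and the atrial marker tested, Myl4, was higher (0.72). Of the 10 cardiomyocyte markers, 6 were lower and 1 was higher in KO, with a median log2 fold change of -0.30. The largest falls were those of Atp2a2 (-0.99), Tnni3 (-0.89) and Pln (-0.79), near that of Ckm (-0.95). Tnnc1 was higher (0.33), and 3 did not pass: Myh6 (-0.20), Actc1 (0.24) and Tnnt2 (0.03). The part of cell composition in the values of Ckm and the other genes was not tested. Set against the summed FPKM of the 10 cardiomyocyte markers in the same library, Ckm was 2.84% ± 0.138 in WT (2.62% to 3.01%) and 1.76% ± 0.206 in KO (1.53% to 2.08%), a change of -38.1%. Ckmt2 set against the same sum was 2.75% ± 0.076 in WT (2.66% to 2.84%) and 3.19% ± 0.279 in KO (2.89% to 3.55%), a change of 16.2%. Neither ratio overlapped between the groups. The sum below both ratios includes the 6 markers that were lower in KO, and Ckmt2 itself did not pass (log2 fold change -0.04). The ratios are therefore not levels per cardiomyocyte.

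On the supply side of the pathway, the transporter and the enzymes of creatine synthesis did not move together. Slc6a8, which carries creatine into the cardiomyocyte, is at chromosome X, 71574475 to 71585132, plus strand (MGP_C57BL6NJ_G0036311). Levels in WT ran from 189 CPM through a median of 200.1 to 220.0 CPM and KO libraries from 200.3 CPM through 217 to 240.4 CPM. KO replicates 1 and 6 lay above every WT library and the other 4 lay within the WT range. The log2 fold change was 0.12 (SE 0.06, 95% interval 0.00 to 0.24), and Slc6a8 did not pass the test (edgeR, adjusted p = 0.0882). Without KO replicate 3, the lowest of the KO libraries, the log2 fold change was 0.14 and Slc6a8 passed (edgeR, adjusted p = 0.0359). Without KO replicate 6, the highest, it was 0.09 and did not pass (edgeR, adjusted p = 0.192). Slc6a8 passed in 1 of the 12 fits that leave out a library and in none of the 9 other alternatives.

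Gamt, guanidinoacetate methyltransferase, makes creatine by methylating guanidinoacetate and is at chromosome 10, 83644271 to 83647132, minus strand (MGP_C57BL6NJ_G0017885). Levels in WT ran from 3.43 CPM through a median of 4.53 to 5.18 CPM and KO libraries from 1.05 CPM through 2.08 to 2.55 CPM. No KO library reached the lowest WT library. Gamt fell by 1.26 on the log2 scale (SE 0.20, 95% interval -1.69 to -0.83, edgeR, adjusted p = 6.06e-05), on 81 to 128 reads per WT library and 29 to 68 reads per KO library.

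Gatm, glycine amidinotransferase, makes guanidinoacetate from arginine and glycine in mitochondria and is at chromosome 2, 129731289 to 129750363, minus strand (MGP_C57BL6NJ_G0026838). WT libraries ran from 2.60 CPM through a median of 2.87 to 3.58 CPM and KO libraries from 1.66 CPM through 2.20 to 4.23 CPM. KO replicate 4 was the highest of all 12 libraries and 4 of the other KO libraries were below every WT library, so the KO group spanned the WT group on both sides. The log2 fold change was -0.19 (SE 0.20, 95% interval -0.62 to 0.24, edgeR, adjusted p = 0.457), on 46 to 123 reads per library. That interval does not reach the size of the fall of Ckm. The FPKM ratio of Gamt to Gatm was 2.15 ± 0.315 in WT (1.76 to 2.58) and 1.06 ± 0.373 in KO (0.687 to 1.62), without overlap.

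Ak1 and Ak4 both rose, by very different amounts. Ak1, the cytosolic isoform of muscle, is at chromosome 2, 32041171 to 32054514, plus strand (MGP_C57BL6NJ_G0026033). In WT its libraries ran from 404 CPM through a median of 426 to 447 CPM and KO libraries from 433 CPM through 487 to 570 CPM, the highest in KO replicate 3. The upper WT and lower KO libraries overlapped. The log2 fold change was 0.21 (SE 0.06, 95% interval 0.08 to 0.34, edgeR, adjusted p = 0.00822), from 426 ± 16.6 to 493 ± 48.2 CPM (n = 6 each). Without KO replicate 3 it was 0.16 (edgeR, adjusted p = 0.0158).

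Ak4, the matrix isoform, is at chromosome 4, 105568530 to 105622706, plus strand (MGP_C57BL6NJ_G0028912). WT libraries ran from 18.2 CPM through a median of 20.6 to 22.9 CPM and KO libraries from 51.5 CPM through 57.2 to 68.8 CPM. The lowest KO library was above the highest WT library by more than the whole WT range. Ak4 rose by a log2 fold change of 1.51 (SE 0.08, 95% interval 1.34 to 1.68, edgeR, adjusted p = 3.41e-10), a 2.85-fold difference, on 449 to 585 reads per WT library and 1405 to 1945 reads per KO library.

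Ak3, the matrix isoform that uses GTP, moved against Ak4, so the balance between these isoforms changed. It was 155 ± 11.4 CPM in WT and 97.7 ± 7.52 CPM in KO without overlap (log2 fold change -0.67, SE 0.06, edgeR, adjusted p = 1.03e-07), and its row overlaps an unnamed row on the opposite strand. The summed FPKM of Ak1, Ak3 and Ak4 was 433 in WT (404 to 446) and 467 in KO (428 to 508), with overlap. Within this sum, Ak1 held 76.3% ± 1.51 in WT and 81.9% ± 1.59 in KO, and Ak3 held 21.6% ± 1.48 and 12.7% ± 1.69. Ak4 held 2.07% ± 0.194 in WT and 5.45% ± 0.400 in KO, without overlap. Of the matrix pair, Ak4 was 8.75% ± 0.851 in WT (7.64% to 9.76%) and 30.3% ± 3.69 in KO (25.6% to 35.9%).

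Genes that use, make or pass on the same phosphate groups were read from the fit across all rows, by list. The count of each list below is to be set beside all rows tested, of which 25.6% were higher and 25.5% lower. No list was tested as a set. Several rows named below overlap other rows, and how reads shared between them were counted is uncertain. Among 5 nucleoside diphosphate kinases tested, which pass phosphate from ATP to other nucleotides, 2 were higher and 2 lower (median log2 fold change 0.15). Nme4, the mitochondrial member, had the largest fall, from 5.91 ± 1.05 to 1.03 ± 0.333 CPM (log2 fold change -2.51, SE 0.21, edgeR, adjusted p = 3.42e-08). Nme1, a cytosolic member, was 3.82 ± 0.528 CPM in WT and 9.05 ± 1.41 CPM in KO (log2 fold change 1.24), and its row overlaps a readthrough gene. Nme7, whose row overlaps 3 others, was higher (0.74) and Nme6 lower (-0.60). Nme3 was listed at 0 in every library, but its row overlaps 2 others, so its expression cannot be read from that 0.

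Of the 7 AMPK subunits, which read the AMP made by adenylate kinase, 4 were higher and 2 lower (median log2 fold change 0.16). The beta subunits, the scaffolds of the complex, went opposite ways. Prkab2, the beta subunit prominent in muscle, was 88.7 ± 6.14 CPM in WT and 172 ± 23.4 CPM in KO (log2 fold change 0.95, SE 0.08, edgeR, adjusted p = 9.02e-08), and Prkab1 was 42.9 ± 4.96 CPM in WT and 23.3 ± 1.82 CPM in KO (log2 fold change -0.88, SE 0.08, edgeR, adjusted p = 7.75e-08). Both rows overlap another row. Of the gamma subunits, which bind AMP, Prkag2 was higher (0.66) and Prkag3, near 1 CPM in KO, was lower (-0.66, edgeR, adjusted p = 0.0445).

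In the purine nucleotide cycle and adenosine metabolism, which take up the AMP that adenylate kinase leaves, 5 of 9 genes were higher and 3 lower (median log2 fold change 0.26). Adssl1, the adenylosuccinate synthase of muscle, was 124 ± 8.72 CPM in WT and 424 ± 85.3 CPM in KO (log2 fold change 1.77, SE 0.11, edgeR, adjusted p = 7.01e-09), and the next enzyme of the cycle, Adsl, was lower (-0.49, 74.3 ± 2.57 against 52.8 ± 2.91 CPM). Ada, adenosine deaminase, was 1.02 ± 0.298 CPM in WT and 3.62 ± 0.597 CPM in KO (log2 fold change 1.83), and the ecto-nucleotidase Nt5e was higher by 0.51 with overlapping groups.

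Among the carriers and channels that move ATP, ADP and phosphate across the mitochondrial membranes, 2 of 5 were higher and 2 lower (median log2 fold change -0.13). The adenine nucleotide translocase Slc25a5 was 197 ± 16.6 CPM in WT and 322 ± 34.8 CPM in KO (log2 fold change 0.71, SE 0.07, edgeR, adjusted p = 5.52e-07). Slc25a4, the translocase isoform of heart and muscle and, named after its value was seen, the tested gene of this list that did not pass, had a log2 fold change of -0.13 (SE 0.07, edgeR, adjusted p = 0.149). The outer membrane channels Vdac2 and Vdac1 differed by 0.27 and -0.21, and the phosphate carrier Slc25a3 by -0.19.

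Of the 5 genes tested that make or use methyl donors or arginine, 1 was higher and 2 lower (median log2 fold change -0.03). Gnmt, which like Gamt takes its methyl group from S-adenosylmethionine, was 3.27 ± 0.879 CPM in WT and 0.487 ± 0.227 CPM in KO (log2 fold change -2.74, SE 0.28, edgeR, adjusted p = 5.06e-07). Its KO libraries ran from 0.225 to 0.829 CPM, so the size of this fall rests on few reads. Ass1, argininosuccinate synthase, was higher (1.19) from 2.25 ± 0.269 CPM, and Mat2b was lower (-0.15). Of the M-band and titin proteins beside which Ckm is anchored in the sarcomere, 2 of 4 were higher and 2 did not pass (median log2 fold change 0.17): Fhl2, an adaptor of metabolic enzymes on titin, was 693 ± 109 CPM in WT and 1027 ± 93.8 CPM in KO (log2 fold change 0.57), and Myom1 was higher by 0.30 with overlapping groups.

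The transcription factors known from the muscle enhancer of Ckm showed no shared direction. Of 9 tested, 2 were higher, 3 lower and 4 did not pass (median log2 fold change -0.11). Six4, a homeodomain factor, was 8.44 ± 1.16 CPM in WT and 4.90 ± 1.26 CPM in KO (log2 fold change -0.78, SE 0.15, edgeR, adjusted p = 4.11e-04). Tead1, which binds MCAT elements, was higher (0.56, 173 ± 12.9 against 254 ± 27.4 CPM), as was Srf (0.26), and Mef2d was lower (-0.23).

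**Figure D4:**
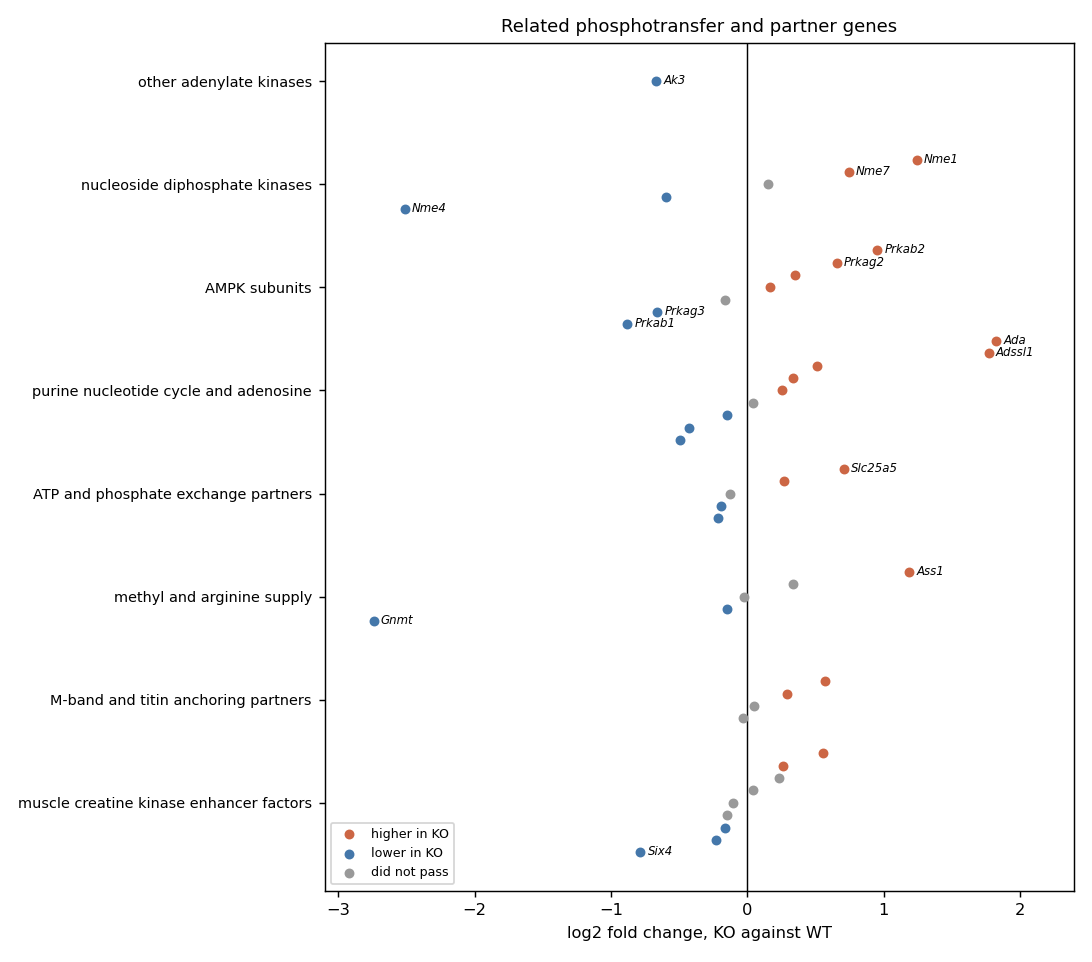
Log2 fold change of KO against WT (horizontal axis) for the tested genes of 8 lists around creatine and adenylate kinase (vertical axis), 1 point a gene, colored by the call at an adjusted p under 0.05 and labelled where the absolute value exceeds 0.6. Ak3 lies left of 0, and every other list holds points on either side.

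Likeness across libraries was taken on log2 CPM with the group means subtracted, as a description over 12 libraries, whose depth and cell makeup vary and touch all genes of a library, among 10043 named genes with a mean of at least 5 CPM. For each gene the 2 highest of these correlations are given. Values this high can arise by chance in a search of this size, and none was tested. The genes most like Ckm were Pcf11 (Pearson r 0.913, Spearman rho 0.804) and Morc4 (r 0.910, rho 0.867). The genes most like Ckmt2 were Ndufs8, a subunit of complex I (r 0.889, rho 0.762), and Gpcpd1 (r 0.883, rho 0.699), both of which were lower in KO (log2 fold changes -0.45 and -0.75). For Ckb they were Yod1 (r 0.891, rho 0.853) and Kbtbd3 (r 0.885, rho 0.860), and for Slc6a8 they were Uqcc3 (r 0.892, rho 0.902) and Lrrc1 (r 0.883, rho 0.867). For Ak4 they were Ap3m1 (r 0.915, rho 0.916) and Jph1 (r 0.894, rho 0.909). Jph1 was lower in KO (log2 fold change -0.95), and Ap3m1 had a log2 fold change of 0.02.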

How the data were processed

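Poly-A mRNA of the ventricular wall was purified on poly-T beads and sequenced in 12 libraries. Reads were mapped with HISAT2 2.0.5 per the submitters' processing notes, which name mm10, while the gene identifiers and coordinates are those of the C57BL/6NJ assembly. The authors counted reads per gene with HTSeq and deposited raw counts. FPKM per library, group means of FPKM and group means of scaled counts (a signal, not used) were likewise deposited. The deposited log2 fold changes and p-values are the authors' DESeq comparison and were not used.

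Libraries were grouped by title. The labels do not say whether each library is a separate mouse, and p-values measure the spread between these libraries. Library pairs of a group gave a chi-square per degree of freedom of 7.27 to 53.5, and none was merged. The fit used edgeR 4.0.16 in R 4.3.3 with filterByExpr, TMM scaling and the robust quasi-likelihood test, with genotype as its only term, Benjamini-Hochberg adjustment over 17155 rows and 95% intervals from the standard error. It was also run on simulated counts with far fewer changed genes than were called here. That run cannot check its error rate at this extent of change. Depth was 23747014 to 31393393 counts per library. Shares are from FPKM and have no test. Alternatives were other scalings, filters and tests (DESeq2 1.42.0, limma 3.58.1 on log2 values, FPKM with a pseudocount of 1), a replicate block and each library left out. Same-numbered libraries did not deviate together (r -0.162 to 0.0243), so their numbers were not taken as pairs.

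The genes, the lists around them and the marker lists were chosen with earlier results of these data known. The genes named are the 9 members, up to 4 called genes of each list by absolute log2 fold change, and the 2 genes most like each of 5 members. Some marker genes are named as well, after their values were seen. Some genes of these lists are not reported here. No set test was made. Promoter sequences are from RefSeq on GRCm38.p6, another build than the table's. Figures were drawn with matplotlib 3.10.9.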

Additional observations from a re-analysis of the deposited data

Results flagged for a closer look

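Of 96 groups of 6 libraries examined over the genes above, 3 held a value far from the rest by Dixon's criterion, where chance gives about 4.8 (1 in 20 groups). Ckm was 1971 CPM in WT replicate 1 and 2120 to 2201 CPM in the other WT libraries, and Ckm was called lower with and without that library. Ckmt1 was 0.157 CPM in WT replicate 3, on 4 reads, and 0 in the other WT libraries. Sdhaf4 was 2.73 CPM in KO replicate 1 and 2.25 to 2.42 CPM in the other KO libraries, against 14.3 CPM or more in WT. That lowest WT value was in WT replicate 6, which was not flagged, and the other WT libraries ran from 24.1 to 30.3 CPM. Without WT replicate 6 the log2 fold change of Sdhaf4 was -3.51, against -3.39 with all libraries.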

How the results depend on the processing

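The 4 calls (Ckm and Gamt lower, Ak1 and Ak4 higher) were made in all 21 alternatives, 12 that leave out a library and 9 others. Over those that leave out a library the log2 fold change ran from -0.99 to -0.92 for Ckm, from -1.37 to -1.14 for Gamt, from 0.16 to 0.25 for Ak1 and from 1.46 to 1.55 for Ak4. On log2(FPKM + 1) that of Gamt was -0.996, since the pseudocount shrinks low genes. The genes called higher were 2 or 3 and those called lower 2 throughout, and all rows called ran from 3918 to 4626 higher and from 4029 to 4602 lower. Ckb passed with a replicate block (0.26, edgeR, adjusted p = 0.0261), and the block changed no other call among the 8 genes. Of the 6 WT libraries, 1 was most like the KO library of its own number. Without the expression filter Ckmt1 passed (3.14, edgeR, adjusted p = 0.00698), a value that rests on 4 WT reads and on the prior count. Gatm ran from -0.39 without KO replicate 4 to -0.10 without KO replicate 6 and passed in none. The difference in mitochondrial share of creatine kinase, KO minus WT, ran from 14.5 to 15.3 percentage points, that of the Ckb share from 1.81 to 2.15 and that of the Ak1 share from 5.03 to 5.94. Values for Gatm, Gamt and Ckmt1 are limited by depth. So are those of Gnmt (0.225 to 0.829 CPM in KO), Nme4 (0.578 to 1.56 CPM in KO) and Ada (0.596 to 1.42 CPM in WT).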
